A study of Homo sapiens with 6 samples.

Results

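AP-1 transcription factors were followed through silencing of the kinase NEK2 in MDA-MB-231, a human triple-negative breast cancer (TNBC) cell line of the mesenchymal type. The 10 genes, FOS, FOSB, FOSL1, FOSL2, JUN, JUNB, JUND, ATF3, BATF3 and JDP2, were taken from the 74852 genes of the deposited table by symbol, the row with the highest mean being kept where several carried it. All 10 passed the filter on low values, a mean over the 6 libraries of 10 or more, as did 18717 genes in all. The values are normalized counts, for which the reads of a gene were divided by a size factor that DESeq2 fits to each library.

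AP-1 is a dimer of basic leucine zipper proteins, most often a FOS family member bound to a JUN family member. JUN proteins can pair with each other, whereas FOS proteins need a JUN partner, and ATF3, BATF3 and JDP2 are further partners of the JUN proteins that often repress. Mitogen-activated protein kinases raise both the transcription and the activity of these factors, which bind the TRE, a short palindrome, and the related CRE. In breast cancer cells of the mesenchymal type, FOSL1 (FRA-1) is known as a prominent FOS family member.

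Cells of both groups were grown in high-glucose DMEM with serum and transfected 2 times with a pool of siRNAs, si-CTRL against no transcript or si-NEK2 against NEK2. Per the labels they were harvested 24 h after the second transfection, and libraries of polyA RNA were made with a TruSeq Stranded mRNA kit from 3 samples per group. The methods of the study differ from the labels in the stated harvest time, the medium and the extraction kit. One pool per target was used, so that effects of single siRNAs cannot be told apart, and whether both groups were handled together is not stated. Nothing in the labels says that the samples of a group were separate cultures, so that the spread between them may be technical. The libraries held between 52625492 and 87454509 reads on genes, and 1 read was worth between 0.818 and 1.25 normalized counts. NEK2 itself fell from 3438 ± 229 to 344.9 ± 54.4 normalized counts (SD, n = 3 each), which left 10.0% of the transcript. The 5 markers of a mesenchymal TNBC line examined (VIM, CD44, ZEB1, AXL and CAV1) had between 2822 and 173162 normalized counts in every library. ESR1, PGR, CDH1 and EPCAM, the markers of hormone-dependent or epithelial cells, had at most 15.2, and the leukocyte and endothelial markers PTPRC and PECAM1 at most 25.4. The second principal component of the tested genes, with 16.2% of the variance, placed replicate 1 of si-CTRL at 38.9. Replicate 3 of si-NEK2 was on the same side at 16.9, and the other libraries lay between -26.1 and -4.1.

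Of the 10 AP-1 genes, 6 were regulated after NEK2 silencing, 5 lower and 1 higher. Regulated means here a change of 1.5-fold or more with p no higher than 0.05, before adjustment, in limma on log2(normalized count + 1). FOSL1, JUN, JUNB, BATF3 and JDP2 fell, ATF3 rose, and FOS, FOSB, FOSL2 and JUND did not pass. In bulk RNA a fall in the number of cells that express a gene and a fall in the RNA per cell cannot be told apart. By the same rule 22.5% of all tested genes were regulated, 14.3% lower and 8.23% higher. An adjusted p-value of at most 0.05 (limma, Benjamini-Hochberg adjustment) was reached by 7 of the 10 genes, against 43.1% of all genes. In 8 of the 10 the values of the groups did not overlap, against 55% of all genes. The median log2 fold change of the 10 genes was -0.56, and that of all tested genes was 0.01. With a fold change of at least 2 in place of 1.5, 2 of the 10 remained, FOSL1 and JUNB, against 8.75% of all genes.

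**Figure D1:**
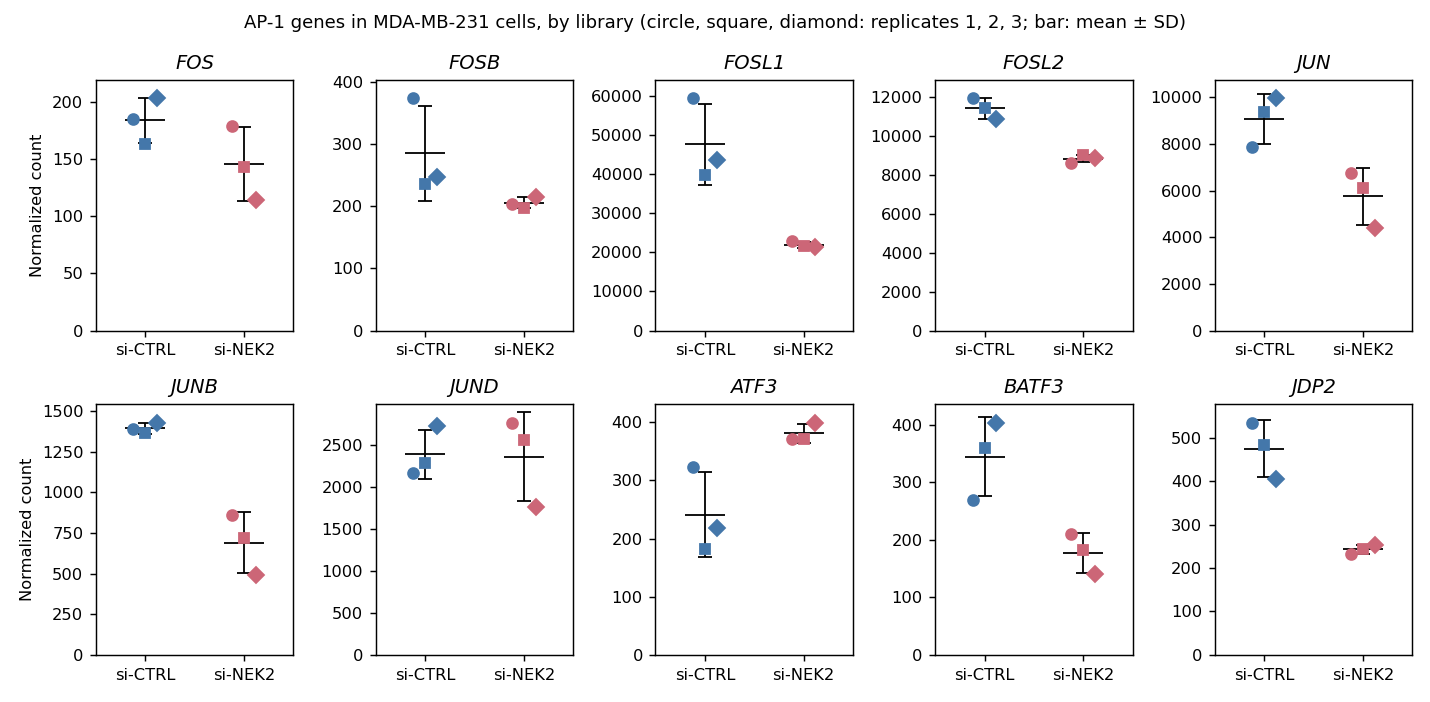
Normalized counts of the 10 AP-1 genes in each library, with 1 panel per gene and a linear axis from 0. Circles, squares and diamonds are replicates 1, 2 and 3 of si-CTRL (blue) and si-NEK2 (red), and the bars give the mean ± SD of 3 libraries. FOSB, FOSL1, FOSL2, JUN, JUNB, BATF3 and JDP2 lay lower in every si-NEK2 library than in any si-CTRL library. ATF3 lay higher, and the groups overlapped for FOS and JUND.

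Within the FOS family FOSL1 passed the 1.5-fold limit, and FOSL2 fell by less. FOSL1 (GSHG0005912, chromosome 11 from 65659490 to 65667997, hg19) encodes FRA-1, which lacks the strong transactivation domain of FOS. It had 59386, 39866 and 43691 normalized counts in si-CTRL replicates 1, 2 and 3 and 22840, 21684 and 21427 in si-NEK2 replicates 1, 2 and 3. The si-CTRL libraries spread widely, replicate 1 being the highest, but the lowest of them was above every si-NEK2 library. The mean fell from 47648 ± 10344 to 21984 ± 753 (SD, n = 3 each), so that 46.1% remained. The log2 fold change was -1.09 (SE 0.13, adjusted p = 0.000279 in limma), and without si-CTRL replicate 1 it was -0.93. The coordinates of FOSL1 lie inside those of a row named MIR612 // NEAT1, which spans 65188828 to 65836382. That row, with a mean of 43510 normalized counts over the 6 libraries, had a log2 fold change of 0.20 (adjusted p = 0.139 in limma), and how reads on both were assigned is not stated.

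FOSL2 (GSHG0016346, chromosome 2 from 28615667 to 28639445, hg19), which encodes FRA-2, moved less but evenly. It had 11908, 11407 and 10852 normalized counts in si-CTRL and 8611, 9013 and 8837 in si-NEK2, in the order of the replicates. The groups were apart and each was tight, with a spread of 4.64% and 2.29% of its mean. The log2 fold change was -0.37 (SE 0.06, adjusted p = 0.00165 in limma), a fold change of 1.29 that is under the limit of 1.5.

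FOS and FOSB, the classical immediate early members that serum and stress switch on for a short time, were at low levels in both groups. FOS (GSHG0008999, chromosome 14 from 75745481 to 75748937, hg19) had 185.0, 163.7 and 203.4 normalized counts in si-CTRL and 179.2, 143.7 and 114.2 in si-NEK2. The groups overlapped, and the log2 fold change was -0.35 (95% confidence interval -0.76 to 0.06, adjusted p = 0.149 in limma), an interval that leaves room for a fall beyond 1.5-fold. FOSB (GSHG0015018, chromosome 19 from 45971253 to 45978437, hg19) had 373.7, 235.4 and 247.2 in si-CTRL and 203.8, 197.9 and 215.5 in si-NEK2, which did not overlap. Its si-CTRL replicate 1 stood above the other libraries, and the log2 fold change of -0.44 (SE 0.18, adjusted p = 0.0743 in limma) became -0.23 without that library. FOSB lies inside the coordinates of ERCC1, a DNA repair gene with a mean of 3936 normalized counts over the 6 libraries, which fell by 0.82 on the log2 scale (adjusted p = 0.000101 in limma). The reads of FOSB are uncertain for that reason, and the part of ERCC1 in its value was not tested.

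In the JUN family, JUN and JUNB fell, and JUND, which is usually expressed at a steady level and is less dependent on serum, had overlapping groups. JUN (GSHG0002147, chromosome 1 from 59246465 to 59249785, hg19), the main activating partner of the FOS proteins, had 7884, 9350 and 9955 normalized counts in si-CTRL and 6764, 6101 and 4378 in si-NEK2. All si-NEK2 libraries were below all si-CTRL libraries, si-NEK2 replicate 3 being the lowest. On average 63.4% of the transcript remained (log2 fold change -0.67, SE 0.16, adjusted p = 0.00774 in limma). Without si-NEK2 replicate 3 it was -0.49, which is under 1.5-fold, so that the call of JUN as regulated rested on that library.

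JUNB (GSHG0014615, chromosome 19 from 12902308 to 12904127, hg19), a weaker activator that can also hold JUN back, fell most within the family. It had 1389, 1364 and 1429 normalized counts in si-CTRL and 862.5, 720.3 and 490.8 in si-NEK2. The si-CTRL libraries were within 2.36% (SD) of their mean, whereas the si-NEK2 libraries spread by 27.1%. The log2 fold change was -1.05 (SE 0.18, adjusted p = 0.00167 in limma), and it lay between -1.23 and -0.82 over the fits that left out 1 library. JUNB is inside a row with no symbol that has a mean of 707.5 normalized counts over the 6 libraries and a log2 fold change of -0.09 (adjusted p = 0.433 in limma).

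JUND (GSHG0015625, chromosome 19 from 18390504 to 18392466, hg19) had 2165, 2283 and 2722 normalized counts in si-CTRL and 2767, 2559 and 1761 in si-NEK2. The highest and the lowest of the 6 values were both from si-NEK2. The log2 fold change was -0.04 (95% confidence interval -0.41 to 0.34, adjusted p = 0.879 in limma). The interval excludes a change of 1.5-fold, but the sign turned when 1 library was left out, to 0.06 without si-CTRL replicate 3 and to 0.16 without si-NEK2 replicate 3.

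The sequences upstream of the JUN family genes are shown because JUN and JUNB passed the test and JUND did not. They are the 250 bases before the RefSeq start site in GRCh38.p14, read 5′ to 3′ on the strand of the gene, with matches to the searched motifs in capitals. JUN is at chr1:58784048-58784297 on the minus strand, JUNB at chr19:12791236-12791485 on the plus strand and JUND at chr19:18281623-18281872 on the minus strand.
JUN: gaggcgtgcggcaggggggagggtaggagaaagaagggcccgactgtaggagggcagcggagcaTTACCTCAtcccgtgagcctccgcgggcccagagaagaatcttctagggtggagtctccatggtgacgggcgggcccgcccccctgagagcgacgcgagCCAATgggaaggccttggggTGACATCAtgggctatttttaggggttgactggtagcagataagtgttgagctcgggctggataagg
JUNB: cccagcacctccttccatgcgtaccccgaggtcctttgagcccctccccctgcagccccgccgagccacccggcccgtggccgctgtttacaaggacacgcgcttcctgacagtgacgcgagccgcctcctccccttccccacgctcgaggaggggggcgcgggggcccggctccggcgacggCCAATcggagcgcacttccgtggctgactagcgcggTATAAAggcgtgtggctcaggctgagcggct
JUND: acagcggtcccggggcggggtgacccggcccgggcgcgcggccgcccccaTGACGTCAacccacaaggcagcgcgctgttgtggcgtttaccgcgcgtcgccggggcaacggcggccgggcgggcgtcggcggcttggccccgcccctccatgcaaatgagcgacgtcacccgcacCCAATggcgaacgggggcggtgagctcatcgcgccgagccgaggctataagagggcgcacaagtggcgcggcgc
In JUN the capitals mark, in this order, TTACCTCA (the jun2 site, 186 bases before the start), CCAAT (87 bases before) and TGACATCA (a jun1-type site, 67 bases before), the last being the form of AP-1 and ATF site known from autoregulation of JUN. In JUNB they mark CCAAT (67 bases before the start) and TATAAA (31 bases before). In JUND they mark TGACGTCA, the palindromic CRE (200 bases before the start), and CCAAT (74 bases before). The 3 promoters thus share a CCAAT match and none of the other motifs.

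Windows from 250 bases before to 50 bases after a start were searched on both strands for the motifs just named and for the CArG box, which serum response factor binds. The TRE was searched as TGACTCA. A CArG box can contain CCAAT or TATAAA, and the other motifs do not contain each other. RefSeq tables held 11 promoters for 8 of the 10 genes. They held none for FOSL1 and BATF3, which were therefore not searched. Among all 35116 promoters of the same length, 4.95% held the TRE, 1.85% the CRE, 2.61% TGACATCA, 0.715% TTACCTCA, 34.6% CCAAT, 11.5% TATAAA and 1.29% the CArG box. Of the 8 AP-1 genes searched, FOSL2 had a TRE just after its start and JUND the CRE, and none of the windows held the CArG box. A CArG box more than 250 bases before a start was outside the search, so that its absence from these genes is not shown. TATAAA was near the start of FOS, FOSB and JUNB, at 33, 30 and 31 bases before it. The 3 windows of JDP2 held none of the motifs. A match is a stretch of letters and does not say that a factor binds there.

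**Figure D2:**
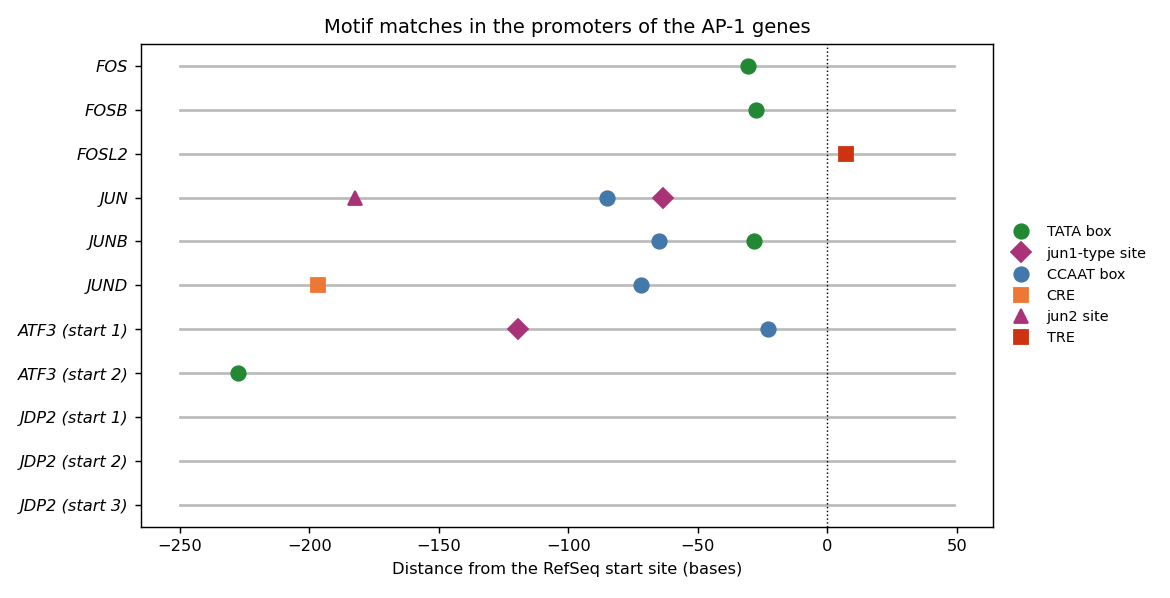
Motif matches in the promoters of the AP-1 genes, with the distance from the RefSeq start site in bases on the horizontal axis and 1 line per start. The dotted line is the start, and each symbol is the middle of a match to a TRE, a CRE, a jun1-type site (TGACATCA), a jun2 site (TTACCTCA), a CCAAT box or a TATA box. JUN, JUNB, JUND and the first start of ATF3 each hold a CCAAT match, and the 3 starts of JDP2 hold no match. FOSL1 and BATF3 had no promoter to search and are not shown.

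ATF3 moved against the members that fell. ATF3 (GSHG0001432, chromosome 1 from 212738676 to 212794118, hg19), a stress-induced factor that represses as a homodimer and can activate as a partner of JUN, had 322.5, 182.1 and 218.7 normalized counts in si-CTRL and 371.5, 371.4 and 399.0 in si-NEK2. Every si-NEK2 library was above every si-CTRL library, and si-CTRL replicate 1 was the nearest to them. The mean rose from 241.1 ± 72.8 to 380.7 ± 15.9 (SD, n = 3 each), with a log2 fold change of 0.70 (SE 0.19, adjusted p = 0.0170 in limma). The increase was under 1.5-fold without si-CTRL replicate 2 (log2 fold change 0.52) and when libraries were scaled to equal totals (0.57). Equal totals moved the median of all genes to -0.11, and relative to that median ATF3 was at 0.68.

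The 250 bases before the first of the 2 RefSeq starts of ATF3 (GRCh38.p14, chr1:212565157-212565406, plus strand) are shown beside those of JUN because they hold the same TGACATCA, here 123 bases before the start, in the member that rose. The capitals also mark CCAAT on the opposite strand, 25 bases before the start. Which start the cells used was not tested.
ATF3: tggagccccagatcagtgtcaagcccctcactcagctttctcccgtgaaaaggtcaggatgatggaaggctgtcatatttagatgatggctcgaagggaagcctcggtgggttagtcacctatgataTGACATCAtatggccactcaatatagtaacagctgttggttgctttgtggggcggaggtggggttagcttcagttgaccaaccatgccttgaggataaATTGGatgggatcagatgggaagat

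BATF3 and JDP2 both fell, to 51.5% and 51.2% of their level in si-CTRL. BATF3 (GSHG0002943, chromosome 1 from 212859760 to 212873327, hg19), a small partner of JUN proteins best known from dendritic cells, had 270.0, 360.3 and 404.0 normalized counts in si-CTRL and 210.3, 181.7 and 140.8 in si-NEK2. The groups did not overlap, although the lowest si-CTRL and the highest si-NEK2 library were close. The log2 fold change was -0.95 (SE 0.19, adjusted p = 0.00404 in limma). JDP2 (GSHG0009000, chromosome 14 from 75894509 to 75939402, hg19), a repressor that pairs with JUN proteins, had 534.9, 484.3 and 405.0 in si-CTRL and 231.6, 244.9 and 252.9 in si-NEK2. Its lowest si-CTRL library was well above its highest si-NEK2 library. On the log2 scale it fell by 0.95 (SE 0.12, adjusted p = 0.00043 in limma). Inside JDP2 is a row with no symbol that has a mean of 49.4 normalized counts over the 6 libraries. That row had a log2 fold change of -0.65 (adjusted p = 0.0283 in limma). Another row with no symbol, with a mean of 17.5, spans the whole of JDP2.

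Some of these genes are near each other or near the silenced gene. In hg19 ATF3 and BATF3 are 65.6 kb apart and moved in opposite directions, and they are 889.7 kb and 1010.8 kb from NEK2 on chromosome 1. FOS and JDP2 are 145.6 kb apart on chromosome 14. JDP2 fell, and FOS had overlapping groups.

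**Figure D3:**
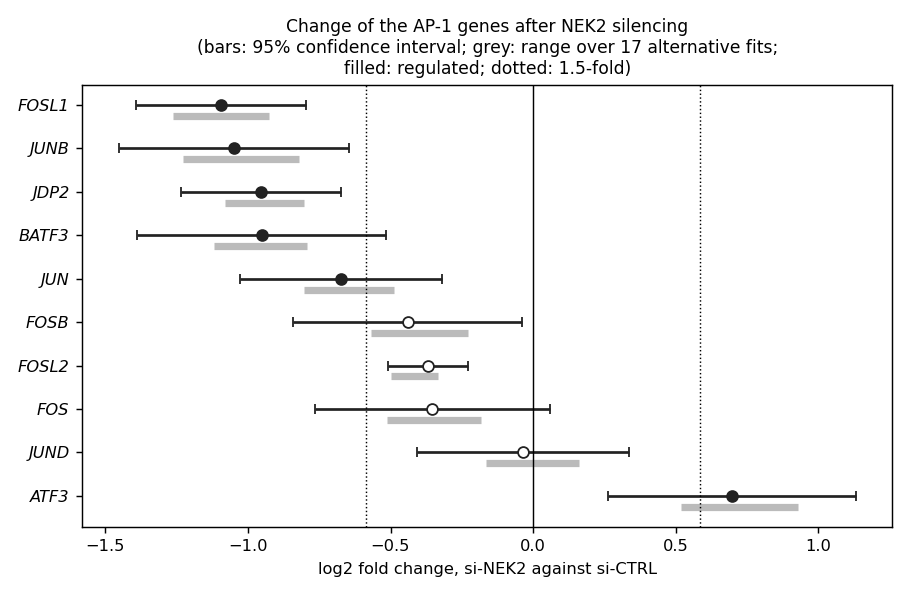
Log2 fold change of each AP-1 gene, si-NEK2 against si-CTRL, with the 95% confidence interval from limma (black bars). Filled circles are regulated genes, dotted lines are 1.5-fold, and grey bars give the range over 17 alternative fits. FOSL1 at -1.09 is the lowest and ATF3 at 0.70 the highest, and the grey bar of JUND spans 0, from -0.16 to 0.16.

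The libraries within a group also differed in a way that several AP-1 genes shared. In si-NEK2, replicate 3 held the lowest value of 6 of the 10 genes (FOS, FOSL1, JUN, JUNB, JUND and BATF3) and replicate 1 the highest of the same 6. Over all tested genes replicate 3 was the lowest of its group for 33.1% and replicate 1 the highest for 29.9%. FOSB, ATF3 and JDP2 had their highest si-NEK2 value in replicate 3, as did 40% of all tested genes. In si-CTRL, replicate 1 held the highest value of 5 genes (FOSB, FOSL1, FOSL2, ATF3 and JDP2) and replicate 3 that of the other 5. Over all tested genes si-CTRL replicate 1 was the highest for 40.6% and replicate 3 for 31.2%. Among 20 other immediate early genes, si-NEK2 replicate 3 was the lowest for 11 and replicate 1 the highest for 13. The other lists followed below differed. Replicate 3 was the lowest for 5 and the highest for 11 of 18 dimer partners, and 3 and 12 of 20 upstream genes. For 25 known targets these counts were 6 and 12, and for 11 genes of turnover and repression 2 and 7. What differed between these samples was not tested.

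To compare levels between genes, the normalized counts were divided by the length in kb of the exons of all coding transcripts of the gene (GENCODE, GRCh38). In si-CTRL the levels per kb were 25896 for FOSL1, 2560 for JUN, 1676 for FOSL2, 1283 for JUND, 765.8 for JUNB, 351.8 for BATF3, 95.02 for ATF3, 82.2 for JDP2, 62.6 for FOS and 51.4 for FOSB (means, n = 3). FOSL1 was thus about an order of magnitude above the next gene, and in that order only ATF3 and JDP2, and FOS and FOSB, had overlapping ranges with their neighbour. In si-NEK2 the levels per kb were 11948 for FOSL1, 1624 for JUN, 1298 for FOSL2, 1268 for JUND, 379.8 for JUNB, 181.2 for BATF3, 150.0 for ATF3, 49.6 for FOS, 42.1 for JDP2 and 37.0 for FOSB. The first 7 places were held by the same genes in the same order, but JUN, FOSL2 and JUND now ran into each other, as did BATF3 with ATF3 and FOS with JDP2.

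Summed per kb, the FOS family went from 27686 ± 5695 to 13333 ± 395 and the JUN family from 4609 ± 453 to 3272 ± 735 (SD, n = 3 each). This left 48.2% of the FOS family and 71.0% of the JUN family, and the libraries of the groups did not overlap in either sum. FOSL1 made up 93.4% ± 1.04 of the FOS family in si-CTRL and 89.6% ± 0.43 in si-NEK2, while FOSL2 went from 6.19% ± 1.02 to 9.75% ± 0.48. In the JUN family the share of JUN went from 55.5% ± 1.79 to 49.7% ± 0.62 and that of JUNB from 16.7% ± 1.49 to 11.5% ± 0.65. The share of JUND was 28.0%, 26.6% and 28.9% in the si-CTRL libraries and 38.4%, 39.3% and 38.6% in the si-NEK2 libraries. In si-NEK2 the shares of JUN, JUNB and JUND were tight although the genes themselves varied, all 3 being lowest in the same library. In si-CTRL JUNB itself spread by only 2.36% of its mean, so that this contrast does not hold there for JUNB. The shares are those of transcripts and say nothing of protein, and they were not tested.

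**Figure D4:**
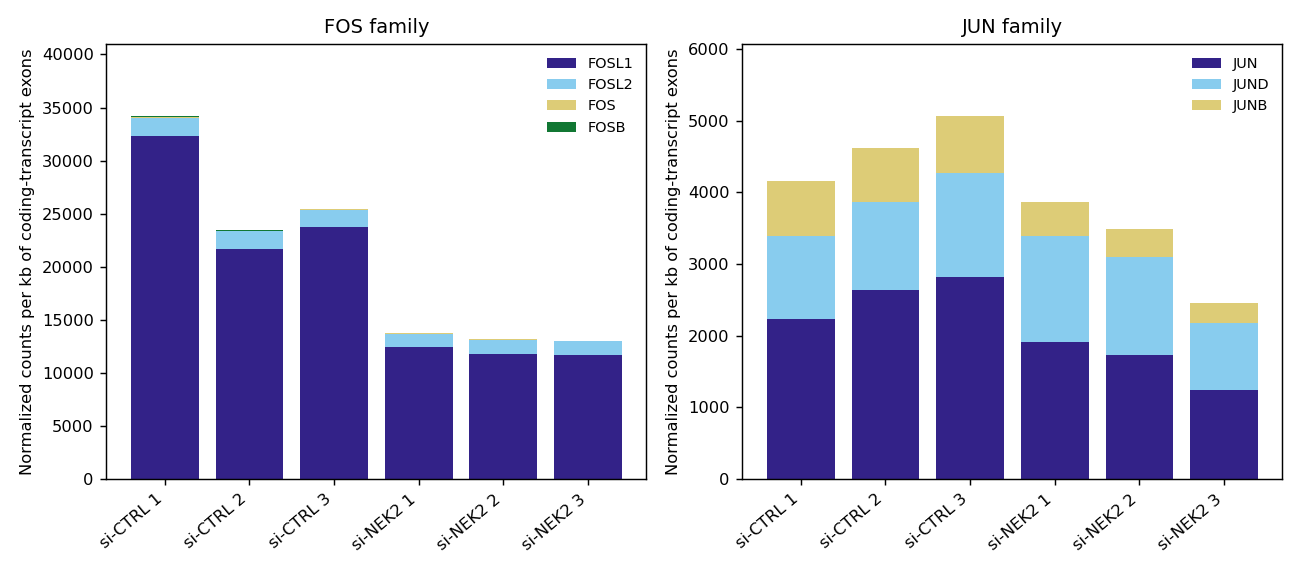
Normalized counts per kb of coding-transcript exons in each library, stacked by gene, for the FOS family (left) and the JUN family (right), on linear axes from 0 with different ranges. FOSL1 fills most of each FOS family bar, whose mean height is 27686 in si-CTRL and 13333 in si-NEK2. JUND takes a larger part of the JUN family bars in si-NEK2 (38.8%) than in si-CTRL (27.8%).

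Of the proteins that pair with AP-1 members or compete for their sites, 18 of 20 genes were tested, and 5 were regulated, all lower, with a list median of -0.15. The share regulated, 27.8%, is near the 22.5% of all genes, of which 14.3% were lower. By sign alone 10 of the 18 were lower and 8 higher. The 5 were CREB5, a CREB family partner of JUN (log2 fold change -1.37, SE 0.17), MAFF, a small MAF protein (-1.29, SE 0.09), BACH2 (-0.78, SE 0.34), BACH1 (-0.68, SE 0.07) and NFE2L3 (-0.63, SE 0.10). BACH1 and BACH2 are repressors at MAF sites, and NFE2L3 is a cap'n'collar factor that pairs with small MAF proteins. MAFF had 3737, 3117 and 3723 normalized counts in si-CTRL and 1410, 1441 and 1466 in si-NEK2, 2 groups far apart. BACH2 had few reads and overlapping groups, and its adjusted p-value was 0.0937 in limma, whereas those of the others were at most 0.000973. Without si-CTRL replicate 1, 3 of the list were regulated in place of 5.

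Of 21 kinases and factors upstream of AP-1, 20 were tested, and 4 were lower and 1 higher, with a list median of 0.04. The share regulated, 25%, is near the 22.5% of all genes. ELK3, an ETS factor that acts with serum response factor, fell most (-1.64, SE 0.14), from 8695 ± 1973 to 2742 ± 123 normalized counts (SD, n = 3 each). MAP2K1, the MEK1 kinase (-0.96, SE 0.07), and MAPK14, the p38 alpha kinase (-0.61, SE 0.08), fell as well. MAP2K6, a kinase that activates p38, rose by 2.21 (SE 0.21), from 31.3 ± 8.19 to 145.5 ± 10.98 normalized counts (SD, n = 3 each). The highest adjusted p-value of the 4 genes named was 0.000593, that of MAPK14 (limma).

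Among 20 other immediate early genes, which like FOS and JUN are switched on without new protein synthesis, 5 were lower and 2 higher, and the median was -0.44. Of all genes 14.3% were lower and 8.23% higher. With equal total scaling 9 of the 20 were lower and 1 higher, and with upper quartile scaling 8 and 2. EGR1, a zinc finger factor induced by growth factors, fell by 1.10 on the log2 scale (SE 0.18), CTGF, a matricellular protein and YAP target, by 1.02 (SE 0.14) and MYC by 0.84 (SE 0.15). EGR3 (-0.76, SE 0.22) and IER3 (-0.72, SE 0.10) were the others that fell. IER5 rose by 0.97 (SE 0.14), from 4194, 5533 and 6251 normalized counts in si-CTRL to 11097, 10521 and 9408 in si-NEK2. NR4A3, an orphan nuclear receptor, rose by 0.67 (SE 0.18). The adjusted p-values of the 7 were between 0.0005 and 0.0201 (limma).

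The list in which most genes moved was that of known AP-1 targets. Of 25 tested genes of 27, 17 were lower and 0 higher by the limma rule, against 14.3% and 8.23% of all genes, and the median was -1.16. Without the limit on fold change, EZR and GSTP1 were higher (adjusted p = 0.0268 and 0.00105 in limma). Their log2 fold changes of 0.41 (SE 0.12) and 0.46 (SE 0.07) are under 1.5-fold. With edgeR and with DESeq2 on the recovered reads, 18 of the list were regulated. IL1B, an inflammatory cytokine, had 3773, 3031 and 3413 normalized counts in si-CTRL and 271.7, 300.0 and 303.0 in si-NEK2. The groups were more than an order of magnitude apart (log2 fold change -3.54, SE 0.10, adjusted p = 6.1e-07 in limma). MMP3, a matrix metalloproteinase, had 113.7, 89.1 and 148.3 in si-CTRL and 9.82, 21.7 and 17.1 in si-NEK2 (log2 fold change -2.81, SE 0.32, adjusted p = 0.000209 in limma). IVL, a keratinocyte envelope protein, had 64, 58 and 57 reads in si-CTRL and 8, 2 and 2 in si-NEK2, so that 5.92% remained (95% exact interval 3.00% to 10.6%, for counting error only).

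The 17 genes were spread over the functions of the list, by a grouping made after the values were seen. All 4 tested metalloproteinases (MMP1, MMP3, MMP9 and MMP13) fell, with log2 fold changes from -2.81 to -0.64, and MMP10 had too few reads for the test. Of the genes of plasminogen activation, PLAUR, the urokinase receptor, fell by 2.14 on the log2 scale and PLAU, urokinase, by 1.32. Of 5 cytokines and chemokines, IL1B, IL8, IL6 and IL11 fell, with log2 fold changes from -3.54 to -2.00, while CCL2 was at 0.02 with overlapping groups. CCND1, VEGFA and HBEGF fell, and TGFB1, at -0.09 (adjusted p = 0.645 in limma), did not pass. CD44 and TIMP1 also fell, the latter at -0.59 just inside 1.5-fold, and MT2A at -0.58 was just outside it.

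Proteins that degrade or repress AP-1 factors were tested in 11 genes, of which 2 rose and 1 fell, with a median of 0.35. The share regulated, 27.3%, is near the 22.5% of all genes. With equal total, upper quartile or quantile scaling, and with edgeR and DESeq2 on recovered reads, 1 rose and 1 fell. The same counts were found without si-CTRL replicate 3, si-NEK2 replicate 2 or si-NEK2 replicate 3. ITCH, a ubiquitin ligase of JUN and JUNB, rose by 0.82 (SE 0.06), from 9286 ± 283 to 16354 ± 410 normalized counts (SD, n = 3 each). HDAC3, a corepressor subunit, rose by 0.59 (SE 0.06), which is at the limit of 1.5-fold. FBXW7, the receptor of a ubiquitin ligase for phosphorylated JUN, fell by 0.75 (SE 0.08), from 1329 ± 50.1 to 791.8 ± 34.2 (SD, n = 3 each). The adjusted p-values of the 3 were at most 0.000176 (limma). The groups did not overlap for 10 of the 11 genes, against 55% of all genes.

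**Figure D5:**
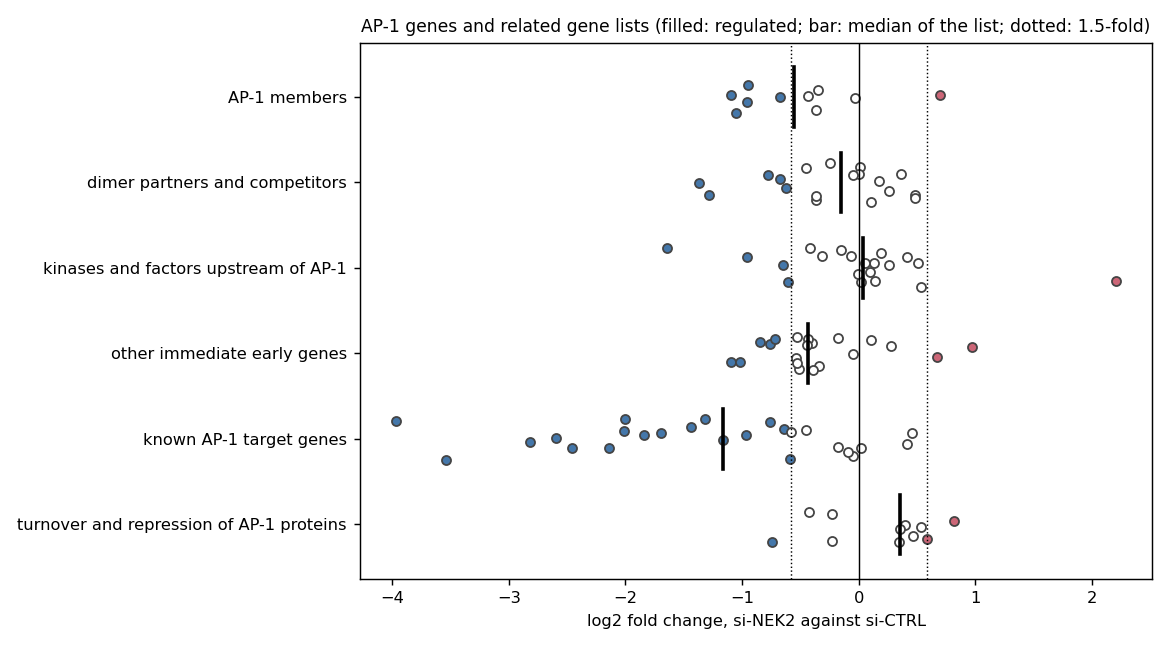
Log2 fold change of every tested gene of the AP-1 members and of the 5 related lists, si-NEK2 against si-CTRL. Filled circles are regulated genes, lower in blue and higher in red, the black bar is the median of the list, and dotted lines are 1.5-fold. The medians are -0.56 for the AP-1 genes, -1.16 for the known targets, -0.44 for the other immediate early genes and 0.35 for the turnover and repression list.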

How the data were processed

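PolyA RNA of 6 MDA-MB-231 samples was sequenced, 3 per group as named by the labels. The authors deposited 1 signal per gene and library, the reads divided by the DESeq2 size factor, annotated by FAST DB on hg19, with every sample kept as its own column. The submitters' processing notes name FastQC, STAR 2.4.0, SAMtools, Picard and DESeq2. The read counter and its use of strand are not given in the sources used here, so that overlapping genes may share reads. All deposited signals were whole multiples of the worth of 1 read (tolerance 0.01 reads), so that reads could be recovered.

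Genes with a mean of at least 10 were tested with limma 3.58.1 in R 4.3.3 (lmFit, eBayes with trend) on log2(signal + 1), a scale that understates changes of low genes, with all 6 samples and no covariate. Thresholds were those of the study, p of at most 0.05 and 1.5-fold, and adjusted p-values are Benjamini-Hochberg over all tested genes. edgeR 4.0.16 (TMM, quasi-likelihood) and DESeq2 1.42.0 on recovered reads, other pseudocounts, filters and scalings, the replicate block and each library left out were alternatives. The fits were tested on simulated data. The text names NEK2, the AP-1 members and the 3 largest increases and decreases among regulated genes of each list, or all of a count of at most 5. Some genes that this rule selects are not reported here. Genes named by function, just inside or outside a limit, or as higher without passing it were chosen after their values were seen. The members and lists were chosen with earlier results of these data known, so no test of a list is given. Promoters came from RefSeq tables (GRCh38.p14). Same-numbered samples did not deviate together (r of -0.09, 0.05 and -0.15). With 3 libraries per group this cannot decide whether the numbers pair them, and the main fit used no pairing. Reads are not unique molecules, so the interval of a read count covers counting error only.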

Additional observations from a re-analysis of the deposited data

How the results depend on the processing

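The AP-1 genes regulated numbered between 5 and 6 over the fits that left out 1 library, 5 with equal total scaling and 6 with other pseudocounts, filters, upper quartile or quantile scaling, eBayes without trend, edgeR, DESeq2 and adjusted p-values, and 2 with a fold change of at least 2. FOSL1, JUNB, BATF3 and JDP2 were regulated in 17 of 17 alternative fits, JUN in 16 and ATF3 in 15, and FOS, FOSB, FOSL2 and JUND in 0. JUND turned to 0.06 without si-CTRL replicate 3 and to 0.16 without si-NEK2 replicate 3. When each library was left out, JUN lay between -0.80 and -0.49, ATF3 between 0.52 and 0.93 and JUND between -0.16 and 0.16, and the dimer partners regulated numbered between 3 and 5. With a fold change of at least 2, the regulated genes came to 2 of the dimer partners, 2 of the upstream kinases and factors, 2 of the other immediate early genes and 0 of the turnover list. With equal totals 21.3% of calls over all genes were higher, with upper quartile scaling 28.1% and with quantile scaling 45.9%, against 36.6%. With the longest coding transcript in place of all exons, a length chosen after seeing the data, FOSL1 made up 90.2% of the FOS family in si-NEK2. By that length JDP2 and FOS also overlapped in si-CTRL, with means of 87.9 and 85.3 per kb. In si-NEK2 FOSB, at 54.5 per kb, then stood above JDP2, at 45.0. With the replicate number as a block 6 of the AP-1 genes were regulated, NEK2 was at -3.32 and the dimer partners regulated were 4, and no AP-1 gene changed its call. FOS had the fewest reads of the AP-1 genes, and its interval was -0.76 to 0.06. Its SE of 0.18 was near that of JUNB (0.18), which had more reads, so that the width did not follow the reads alone.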
